A study of Homo sapiens with 4 samples.

Results

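The sites described here are 1034 accessible regions of ME-1 leukaemia cells that stood in all libraries and moved up the ranking of peak strength after treatment with AI-10-49. They were selected on peak strength among 28368 shared regions, that is, merged autosomal regions with a peak in each of the 4 deposited lists, out of 100497 merged regions in all. Peak strength was the authors' −log10 p-value of the highest peak in the region, turned into a percentile among the shared regions of the same library. A site was counted as rising where the lower of its AI-10-49 percentiles exceeded the higher of its DMSO percentiles by at least 20 points, and this distance is called the margin. These percentiles chose the sites, so their difference between treatments is a description and carries no test. Falling sites, used for comparison, met the same rule in the opposite direction, and "rose" and "fell" refer to this rule alone.

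ME-1 is a cell line from a human acute myeloid leukaemia that carries inv(16). All libraries came from this line, and cells were kept for 6 h in the solvent DMSO or in 1 µM AI-10-49 (2 libraries each). Chromatin was cut with the Tn5 transposase and sequenced (ATAC-seq). The design text speaks of independent experiments, and nothing further is said about how the cultures were separated.

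The inv(16) rearrangement joins CBFB to MYH11 and yields the fusion protein CBFβ-SMMHC. Its normal counterpart CBFβ binds RUNX1, a DNA-binding factor of blood stem and myeloid cells, and stabilises it on DNA. AI-10-49 is an inhibitor of the contact between CBFβ-SMMHC and RUNX1. Tn5 inserts adapters where DNA is free of nucleosomes, mostly at promoters and enhancers, so the height of a peak reflects how often a site is open in the cell population. In such a population, more cells with an open site and a more open site in each cell cannot be told apart.

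The libraries differed in ways that touch every value below. The autosomal lists of the DMSO libraries had 65614 and 63390 peaks, and those of the AI-10-49 libraries 47747 and 52121. The most frequent background level, recovered from the deposited values, was 0.0613 and 0.060 reads per base under DMSO, against 0.0965 and 0.108 under AI-10-49. Shared sites had a median of 8 and 7 summit reads under DMSO, against 9 and 10 under AI-10-49, which was 130.5 and 116.7 times the library's background against 93.3 and 92.9 times. The p-value that ranks the sites depends on both reads and local background, so a common factor in depth need not leave ranks as they are. When reads and local background of every library were multiplied up to the highest library background and the p-value was recomputed, 1029 sites rose and 1012 of the 1034 rising sites remained among them. This scaling multiplies a library by a single constant, so the noise of low read counts stays as it was. A factor that differs between kinds of sites was not tested. Counts of reads this low also make single percentiles coarse: the median distance between replicates at a shared site was 15.3 points under DMSO, against 12.4 points under AI-10-49. Over the shared sites the rank correlation (Spearman) was 0.612 for the pair of DMSO replicates and 0.721 for the AI-10-49 pair. Pairs of unlike treatment had 0.591 to 0.662, so the DMSO replicates were no more alike than libraries of different treatment.

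Rising sites made up 3.64% of the shared sites, and 890 falling sites made up 3.14%. The rule asks for the same count in the other ways of dividing the 4 libraries 2 and 2. Replicates 1 exceeded replicates 2 by the margin at 596 sites (2.1%), and replicates 2 exceeded replicates 1 at 617 (2.17%). DMSO replicate 1 together with AI-10-49 replicate 2 exceeded the other libraries at 571 sites (2.01%), and the reverse held at 625 (2.2%). The rising count was thus 1.65 to 1.81 times the counts of the divisions that mix treatments, in which each pair held 1 library of each treatment. Divided by treatment, 1924 sites passed in both directions together, against 1213 and 1196. Only the division by treatment sets both libraries of higher background and shorter lists against both of the others. The part of these library differences in the counts was not tested.

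**Figure D1:**
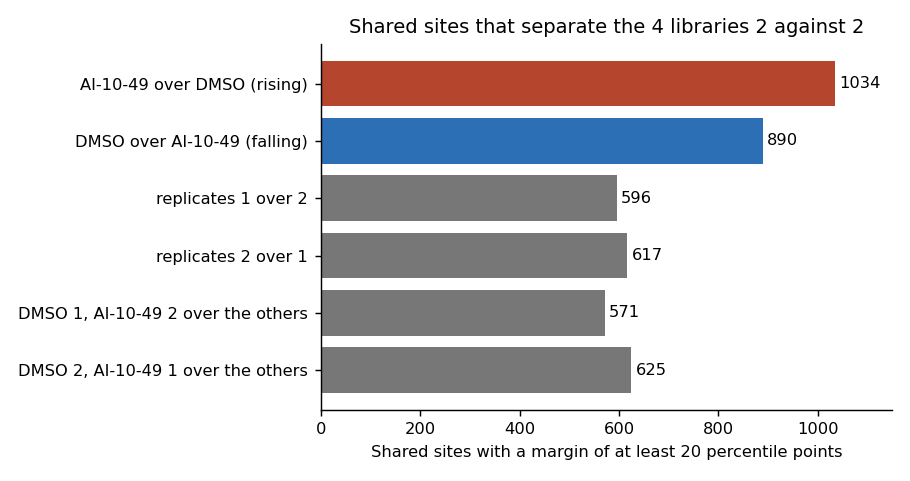
Number of shared sites (horizontal axis) whose lower percentile in one pair of libraries exceeds the higher percentile in the other pair by at least 20 points, for each of the 6 ordered divisions of the 4 libraries. The treatment divisions, with 1034 and 890 sites, stand above the 4 mixed divisions, which lie between 571 and 625.

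The ratio of the treatment counts to the mixed ones grew with the margin asked for. At 40 points or more there were 127 rising sites, 95 falling sites and 36 to 57 sites in the mixed divisions. At 50 points there were 41 rising and 27 falling sites against 5 to 13. The largest margin was 76.2 points for a rising site, 70.6 for a falling site and 54.6 to 59.4 in the mixed divisions. Ranked by percentile within the whole list instead of among the shared sites, only 283 sites rose and 1389 fell, with 342 to 554 in the mixed divisions. That ranking depends on list length, which differs between the treatments, and under it the rising count lay below all counts of the mixed divisions.

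In DMSO the rising sites were mostly weak members of the shared set, and in AI-10-49 they lay in its upper part. Their median percentile was 24.5 and 23.1 under DMSO (replicates 1 and 2) and 68.5 and 67.2 under AI-10-49. The middle 50% of the sites spanned 12.1 to 39.7 and 11.4 to 37.6 under DMSO, and 53.6 to 80.4 and 54.6 to 79.1 under AI-10-49. The higher DMSO percentile was under 25 at 405 sites, from 25 up to 50 at 450, and 50 or more at 179. At 576 sites both DMSO libraries lay below the 50th percentile and both AI-10-49 libraries at or above it, and at 37 sites both AI-10-49 libraries reached the 90th. Without the margin, both AI-10-49 percentiles exceeded both DMSO percentiles at 5569 shared sites (19.6%), of which the rising sites are the part with the widest gap. The opposite order held at 5346 shared sites (18.8%), and each direction of the mixed divisions gave 15.2% to 15.4%. Most margins were moderate, with a median of 27.3 points, and 399 sites (38.6%) lay between 20 and 25.

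**Figure D2:**
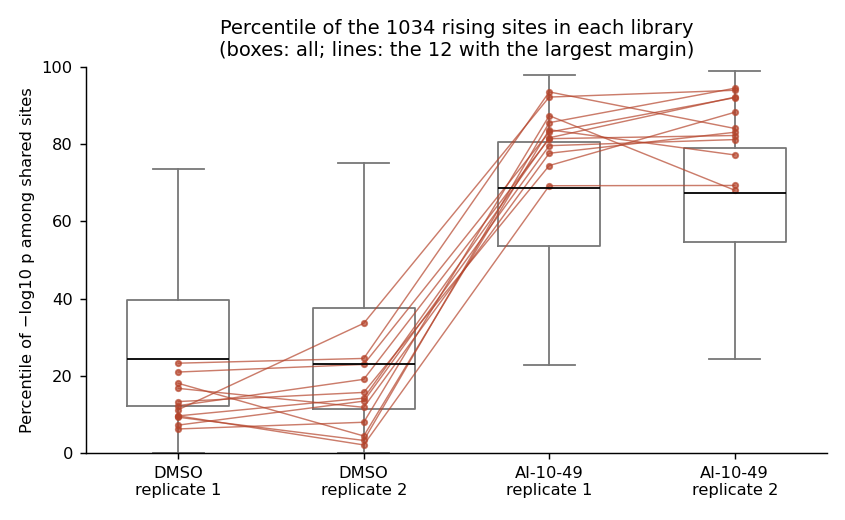
Percentile of −log10 p among the 28368 shared sites (vertical axis) for the 1034 rising sites in each library. Boxes show the median and the middle 50%, whiskers the full range, and red lines the 12 sites with the largest margin, which lie at 33.6 or below in both DMSO libraries and at 68.0 or above in both AI-10-49 libraries.

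Reads and heights were recovered from the fold and −log10 p-value, the latter of which chose the sites, so they describe the selection and support nothing beyond it. In reads, the rising sites had a median of 6 and 6 at the summit under DMSO, against 13 and 14 under AI-10-49, with full ranges of 2 to 16, 2 to 14, 5 to 39 and 6 to 51. Raw reads were higher in both AI-10-49 libraries than in both DMSO libraries at all 1034 sites, as they were at 35.2% of all shared sites, in libraries that differ in background. Divided by the library's background, the median height was 97.9 and 100.0 times under DMSO, against 134.7 and 130.1 times under AI-10-49. On this scale 845 of the 1034 sites had both AI-10-49 values above both DMSO values, a pattern seen at 5.25% of all shared sites, and at 189 sites the groups overlapped or met. The ratio of the AI-10-49 to the DMSO mean height had a median of 1.36 at rising sites, with a range of 0.925 to 2.85. It was 0.746 over all shared sites and 0.406 at falling sites. At 9 rising sites the ratio was below 1.

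**Figure D3:**
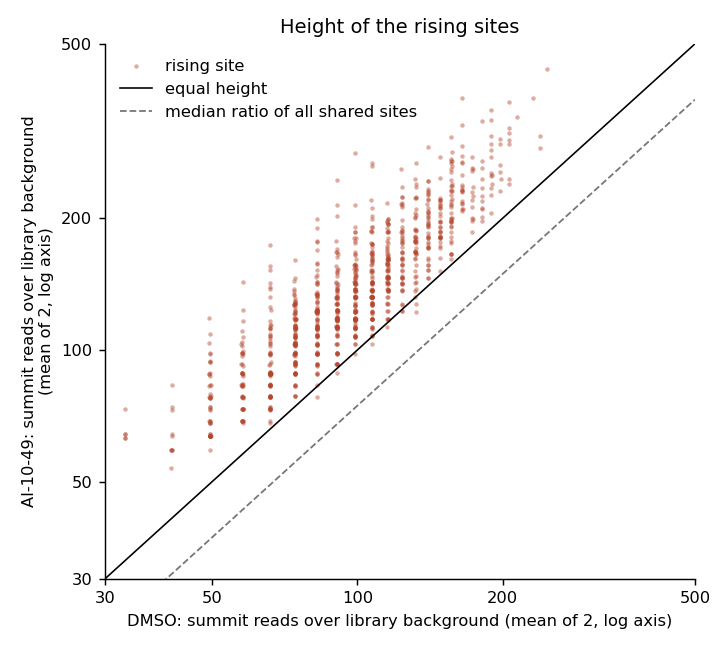
Height of each rising site as summit reads over the library's background, mean of the 2 DMSO libraries (horizontal, log axis) against mean of the 2 AI-10-49 libraries (vertical, log axis). Nearly all points lie above the line of equal height, and the dashed line marks the median ratio of all shared sites, 0.746.

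The site with the largest margin, 76.2 points, was chr3:132441136-132441424 (build hg19, as are all positions here). Its summit carried 7 and 5 reads under DMSO, against 22 and 36 under AI-10-49. Its percentiles went from 9.35 and 3.36 under DMSO to 85.5 and 94.4 under AI-10-49. A site near the bottom of the ranking in DMSO was thus among the stronger ones after 6 h of inhibitor, and its height over background was 2.85 times as large, the highest ratio among rising sites.

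The next was chr16:2014775-2015060, with 5 and 5 reads under DMSO, against 16 and 25 under AI-10-49, and percentiles of 9.70 and 14.3 against 81.6 and 92.1. At chr17:49337722-49337953 there were 6 and 6 reads against 17 and 21, and percentiles of 7.32 and 13.5 against 79.6 and 81.1. Both sites had replicates close together in DMSO and far below either AI-10-49 library. A similar step was seen at chr19:50879555-50879738, with 5 and 5 reads against 17 and 19. At chr1:213500696-213500914 there were 5 and 4 reads against 13 and 17, and at chr19:47104128-47104300 there were 6 and 5 against 18 and 26. In these 3 sites the DMSO percentiles were at most 23 and the AI-10-49 percentiles at least 77.6.

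Chromosome 22 held a further pair of these sites. At chr22:38902319-38902636 the reads were 4 and 4 under DMSO, against 20 and 15 under AI-10-49, and here the AI-10-49 replicates stood apart, at percentiles 87.3 and 68.0. At chr22:19842302-19842686 the reads were 5 and 3 against 14 and 15, with percentiles of 9.70 and 2.19 against 69.2 and 69.3. The AI-10-49 replicates of this second site were nearly equal.

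The remaining 4 of the 12 largest margins, 58.5 to 59.5 points, included 1 tall site and 3 low ones by DMSO reads. The tall one, chr19:17416206-17416658, had 10 and 9 reads under DMSO, against 33 and 29 under AI-10-49. Its local background was 14.1 times that of the library on average. Against it, 10 reads in DMSO replicate 1 stood at percentile 23.3. At chr20:36322201-36322548 the reads were 6 and 4 against 18 and 18. At chr12:111180622-111180794 they were 5 and 4 against 13 and 20, and at chr3:123303847-123304183 they were 6 and 7 against 23 and 31. Over the 12 sites DMSO reads ran from 3 to 10 and AI-10-49 reads from 13 to 36. The 12 sites were picked for the widest gap between the treatments, so this separation describes the selection. These raw reads are also not divided by the library's background, which was higher under AI-10-49. Of the 12, 3 lay on chromosome 19 and 7 on chromosomes 16, 17, 19 and 22 together.

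Some rising sites already stood in the upper part of the shared set under DMSO. The highest by its lowest percentile was chr11:111749662-111750004, with 16 and 14 reads under DMSO, against 39 and 51 under AI-10-49. Its percentiles were 73.6 and 75.03 against 97.9 and 98.96, so it entered the very top of the shared sites. It was followed by chr1:249120098-249120298, with 15 and 14 reads against 28 and 31, and chr1:160068746-160068984, with 13 and 12 against 35 and 30. At chr20:32699999-32700340 there were 12 and 11 reads against 27 and 42. At chr19:3626920-3627242 there were 11 and 10 against 26 and 27, and at chr2:9563551-9563834 there were 13 and 12 against 30 and 30. These 6 sites had small margins, 20.1 to 22.9 points, in a ranking that ends at 100, and their heights over background were 1.21 to 1.78 times as large under AI-10-49.

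Sites at the threshold looked much alike on both sides of it. Just inside, with margins of 20.01 to 20.04 points, were chr19:49298711-49298921 (10 and 8 reads against 18 and 20), chr19:18335404-18335582 (5 and 3 against 8 and 12) and chr11:18548154-18548338 (5 and 6 against 9 and 10). Just outside were chr10:121652023-121652318 (13 and 10 reads against 21 and 24), chr2:12309932-12310102 (6 and 6 against 10 and 11) and chr8:103209703-103209903 (6 and 8 against 13 and 15). Their height ratios were 1.03 to 1.48 inside and 1.04 to 1.19 outside.

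Rising sites were wider than falling ones and had a higher local background, whereas their distance from all shared sites was small once either AI-10-49 library was left out. The merged region had a median width of 236 bp at rising sites (middle 50% from 182 to 308 bp), 182 bp at falling sites and 212 bp over all shared sites. A width of at least 300 bp was found at 284 rising sites (27.5%), 68 falling sites (7.64%) and 21.0% of all shared sites. More than 1 summit in a list was deposited for 28.7% of rising, 8.65% of falling and 21.6% of all shared sites. Peaks of rising sites had a median width of 159 and 140 bp under DMSO, against 175 and 188 bp under AI-10-49. At falling sites these widths were 139 and 136 bp against 120.5 and 132 bp, and over all shared sites 156 and 148 bp against 153 and 164 bp. Peaks of rising and falling sites were thus wider in the treatment where the rule makes a site strong. The merged region spans these peaks, so its width is not independent of the rule, and the part of the rule in it was not tested. In strength over all libraries rising sites lay near the middle of the shared set: the median of a site's 4 percentiles was typically 46.1, against 42.5 at falling and 48.3 at all shared sites. The rule asks for a wide gap between percentiles and so keeps sites away from both ends of the ranking. A middle level therefore follows from the rule.

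The local background that the peak caller set against each summit, recovered together with the reads, was higher at rising than at falling sites. Over the library's own background it was 3.81 and 3.48 times under DMSO, against 3.63 and 3.81 times under AI-10-49 at the median rising site. At falling sites it was 2.65 and 2.61 times under DMSO, against 1.88 and 1.94 times under AI-10-49, and over all shared sites 3.28 and 3.15 against 2.59 and 2.69. Leaving out 1 library admits more sites and brought rising sites closer to all shared sites without an AI-10-49 library than without DMSO replicate 1. Without AI-10-49 replicate 2 their median width was 195 bp against 193 bp over all shared sites, and their local background 2.93 against 2.84 times. Without AI-10-49 replicate 1 the values were 196 against 193 bp and 2.92 against 2.78 times. Without DMSO replicate 2 they were 204 against 196 bp and 3.03 against 2.78 times, and without DMSO replicate 1 they were 220 against 196 bp and 3.44 against 2.73 times. Falling sites stayed below rising ones each time, at 168 to 174 bp and 2.06 to 2.38 times. In the 10% of shared sites with the lowest local background (up to 1.40 times), 71 sites rose (2.50%) and 102 fell (3.595%). In the 10% with the highest (7.48 times or more), 121 rose (4.27%) and 28 fell (0.987%). Rising sites were most frequent at 3.496 to 4.28 times, with 162 sites or 5.71% of that 10% of shared sites, while falling sites were most frequent at 2.05 to 2.46 times, with 148 or 5.22%.

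**Figure D4:**
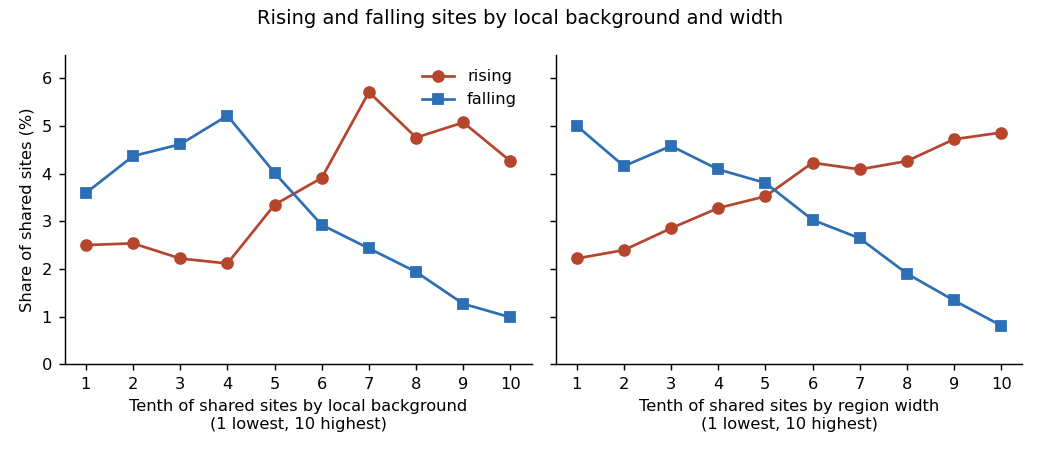
Share of shared sites that rose (red circles) or fell (blue squares), in %, in groups of 10% of the shared sites ordered by local background averaged over the 4 libraries (left) and by width of the merged region (right). Falling sites thin out toward high local background and great width, from 5.01% to 0.811% from the narrowest to the widest 10%, where rising sites go from 2.22% to 4.86%.

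Width and local background both went with the share of rising sites. Among narrow sites (under 212 bp) the share was 2.11% at a local background under the median of 2.90 times and 4.44% above it. Among wider sites it was 3.51% and 4.88%. Falling sites showed the opposite order, with 4.84% and 3.17% of narrow sites and 3.31% and 1.35% of wide sites. Local background is part of the p-value that ranked the sites, so it is not independent of the rule, and its part in the result was not tested. Ranking by reads at the summit leaves it out of the formula. There 831 sites rose, 700 of the 1034 rising sites remained among them, and the median local background was 3.31 times at rising and 2.40 times at falling sites. Reads and local background were recovered together from the same libraries, so these values are no independent support.

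Position on the chromosomes did not enter the rule. Rising sites were most frequent on chromosome 17, where 80 of 860 shared sites rose (9.30%), chromosome 19 with 94 of 1169 (8.04%), chromosome 22 with 30 of 377 (7.96%) and chromosome 16 with 42 of 753 (5.58%). The shares of falling sites on these 4 chromosomes were 1.63%, 1.20%, 1.59% and 1.99%. Chromosome 21 came close to chromosome 16, with 17 of 315 shared sites rising (5.40%) and 3.17% falling. The lowest shares of rising sites were found on chromosome 8, where 36 of 1905 rose (1.89%) and 81 fell (4.25%), on chromosome 13 (16 of 742, 2.16%) and on chromosome 4 (34 of 1516, 2.24%). Chromosomes 17 and 19 together thus held 16.8% of rising sites and 7.15% of shared sites.

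**Figure D5:**
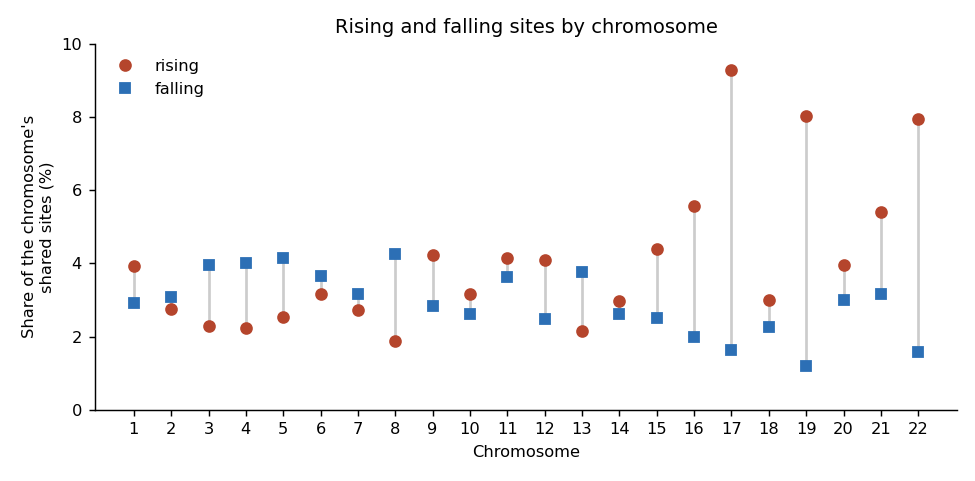
Share of each autosome's shared sites that rose (red circles) or fell (blue squares), in %. Chromosomes 16, 17, 19 and 22 have the most rising and few falling sites, and chromosomes 2 to 8 and 13 have more falling than rising sites.

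Chromosomes 16, 17, 19 and 22, singled out after these values were seen, held 246 rising sites, or 7.79% of their shared sites, against 788 or 3.13% on the other autosomes. The corresponding shares of falling sites were 1.55% and 3.34%. The difference was present at low local background, with 5.13% of shared sites rising on the 4 chromosomes and 2.28% elsewhere, and at high local background, with 9.65% and 4.01%. It was also present when sites were ranked by reads (7.06% against 2.41%) or by percentile in the whole list (2.28% against 0.837%). A cut at the median leaves differences in local background on each side of it, and these rankings use the same libraries. The part of local background in the difference between chromosomes was not tested. Over 22 autosomes the share of rising sites went with the number of protein-coding genes per Mb (Pearson's r = 0.764, Spearman's rho = 0.759), and that of falling sites went against it (r = -0.650, rho = -0.604). Against the median local background of each chromosome, the share of rising sites had r = 0.393 and rho = 0.350. The share of falling sites had r = -0.344 and rho = -0.357. These are descriptions over chromosomes that share the same 4 libraries, and the whole peak lists moved the same way: chromosomes 16, 17, 19 and 22 held 10.9% and 10.01% of peaks under DMSO, against 12.3% and 12.04% under AI-10-49.

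The percentiles of rising sites on single chromosomes are those the rule used, and so a description. On chromosome 19 the median percentile of rising sites was 29.9 and 27.2 under DMSO, against 73.1 and 70.9 under AI-10-49, with 7 and 7 reads against 15.5 and 18. On chromosome 17 it was 22.7 and 20.6 against 70.1 and 67.0, with 6 and 5 reads against 13 and 14. On chromosome 8, with the lowest share of rising sites, it was 25.6 and 27.0 against 70.1 and 67.7. On chromosome 13, with 16 rising sites, it was lower, at 17.3 and 16.8 against 64.8 and 62.0, with 5 and 4 reads against 10 and 10.5. The median height ratio was 1.41, 1.45 and 1.28 on chromosomes 19, 17 and 8, and from 1.27 to 1.45 over all autosomes.

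Rising sites lay toward the outer parts of chromosomes somewhat more often than other shared sites. Within 5 Mb of the first or last peak of a chromosome lay 157 rising sites (15.2%), 72 falling sites (8.09%) and 9.61% of all shared sites. Without chromosomes 16, 17, 19 and 22 the shares were 10.4%, 7.85% and 8.20%.

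Rising sites more often had another shared or rising site nearby than shared sites in general, though most had no other rising site within 100 kb. Another shared site stood within 10 kb of 44.1% of rising sites, 28.9% of falling sites and 33.6% of all shared sites. Another rising site stood within 100 kb of 234 rising sites (22.6%), and a rising site within 100 kb of 8.20% of falling and 13.4% of all shared sites. Falling sites were found within 100 kb of 7.45% of rising sites, against 10.3% of all shared sites. Regions called in both AI-10-49 lists and neither DMSO list were about as frequent near rising sites as elsewhere, within 10 kb of 43 (4.16%) against 3.90% of all shared sites. Regions called in both DMSO lists alone lay within 10 kb of 50 (4.84%) against 4.55%.

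Of the 571 shared sites with another rising site within 10 kb, 46 (8.06%) rose and 7 (1.23%) fell, against 3.64% and 3.14% of all shared sites. Rising sites close to each other are each counted here. The part of site density, width and chromosome in these shares was not tested. The median percentile of the 571 sites, the 46 rising ones included, was 47.5 and 40.02 under DMSO, against 49.8 and 51.1 under AI-10-49. The distance between the DMSO replicates was thus larger than that from DMSO replicate 1 to either AI-10-49 library. DMSO replicate 2 lay further from both AI-10-49 libraries than from DMSO replicate 1. The mean percentile was higher under AI-10-49 at 330 of the 571 sites (57.8%), against 49.8% of all shared sites.

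Chained at distances of up to 100 kb, 800 of the 1034 rising sites (77.4%) stood alone, 85 pairs were formed, and 64 sites lay in 20 chains of 3 or more. Of the 890 falling sites 798 (89.7%) stood alone, and 6 lay in 2 such chains. Rising sites were more numerous and more often had other shared sites nearby. Whether they chained beyond the density of shared sites was not tested. The longest chain of rising sites was chr19:3505935-3762702, with 6 rising sites among 13 shared sites over 257 kb. Its members had a median of 8 and 7.5 reads under DMSO, against 15.5 and 18.5 under AI-10-49, and margins of 20.9 to 43.2 points. They differed in level, from chr19:3671094-3671280 with 4 and 5 reads against 11 and 12 to chr19:3626920-3627242, named above among the strong sites.

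The second in number was chr11:65183924-65337964, with 4 rising sites among 8 shared sites. Its largest step was at chr11:65183924-65184064, from percentiles of 4.09 and 15.2 under DMSO to 65.0 and 70.3 under AI-10-49. In chr20:32277832-32320215 all 3 shared sites rose. The middle one, chr20:32308009-32308392, went from 12 and 11 reads to 35 and 37, and the others from 11 and 8 to 18 and 23 and from 7 and 6 to 18 and 15. In chr19:17416206-17502159 3 of 4 shared sites rose, among them the tall site of the 12 largest margins.

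Each of the other 16 chains had 3 rising sites. Chromosome 19 held chr19:633585-704371, chr19:45225411-45359902, chr19:49990519-50096907 and chr19:56037738-56165972, and chromosome 17 held chr17:48172440-48239108. On chromosome 1 they were chr1:2487426-2574786, chr1:17222126-17240603 and chr1:155108120-155243451. On chromosome 11 they were chr11:62599053-62630369 and chr11:63973929-64085736, and on chromosome 6 chr6:7618587-7726338 and chr6:31695382-31782580. The others were chr9:37079518-37120647, chr10:74870127-75007223, chr12:6677414-6798940 and chr21:45526978-45616476. The densest were chr1:17222126-17240603, chr6:7618587-7726338 and chr17:48172440-48239108, where 3 of 4 shared sites rose. The weakest was chr19:45225411-45359902, with a median of 4 and 4 reads against 8 and 10, and the strongest in DMSO by percentile was chr9:37079518-37120647, at a median of 53.7 and 53.7 against 74.9 and 80.3.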

How the data were processed

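Chromatin accessibility (ATAC-seq) was measured in 4 libraries of ME-1 cells. The authors deposited 1 peak list per library on hg19, and the submitters' processing notes list MACS2 2.1.0, Bowtie2, Picard 1.96, cutadapt 1.3 and deepTools, with no roles. Per the narrowPeak layout, the deposited values are an integer score (not used), a fold enrichment ratio at the summit, and −log10 of the p-value and of the q-value. The settings of the peak caller are not given in the sources used here.

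Peaks of the same coordinates were collapsed into the strongest, autosomal peaks overlapping by at least 1 bp were merged, and the highest peak per region and library was ranked (pandas 2.3.3). Summit reads (k) and local background (λ) were recovered from the deposited fold, taken as (k + 1)/(λ + 1), and from the −log10 p-value as the Poisson probability of more than k reads. Within a tolerance of 0.001 this gave whole reads for all but at most 1 peak per list. The most frequent λ was the library's background. Total depth is not known from the sources. Scripts were tested on simulated data.

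No test was made, because the rule uses the treatment contrast and regions are not replicates. Members, comparisons and alternatives were chosen with earlier results of these data known. Named are the 12 largest margins, the 6 sites highest by their lowest percentile, 3 sites on each side of the threshold, and chains of 3 or more. Single chromosomes and sites or chains singled out beyond this were picked after their values were seen. Protein-coding genes per chromosome came from a RefSeq table of GRCh38.p14, set over the coordinate of the last peak. Neither sequence nor annotation of hg19 was used here, so genes, motifs and cell type markers were not analysed here.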

Additional observations from a re-analysis of the deposited data

How the results depend on the processing

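Of 17 alternatives, the rising count stayed within 1.5 times of 1034 in 10 and the falling count of 890 in 7. Rising sites outnumbered falling sites in 15. The exceptions were the percentile in the whole list (283 and 1389) and leaving out AI-10-49 replicate 2 (2660 and 2793). A margin of 10 gave 2365 and 2130 sites and a margin of 30 gave 386 and 317, by construction. Requiring 5 or more for −log10 q left 572 falling sites, and 50% reciprocal overlap left 565, both among fewer shared sites. Leaving out any library relaxes the rule by construction and gave 2660 to 3508 rising and 2674 to 3305 falling sites: 3508 and 3305 without DMSO replicate 1, 3156 and 2939 without DMSO replicate 2, and 2731 and 2674 without AI-10-49 replicate 1. With the replicate block, that is, differences within replicate numbers, 1533 sites rose and 1401 fell. The differences between replicates 1 and 2 were uncorrelated between treatments over shared sites (r = 0.0053). With so few reads per site, this value cannot show whether the replicate numbers paired the libraries. Of the rising sites, 820 were also called when ranked by fold, 700 by reads, 833 when each list was limited to its 47747 strongest peaks, and 263 (25.4%) by percentile in the whole list. With 50% reciprocal overlap 601 of them were still shared and 548 called, and with −log10 q of 5 or more 423 were still shared and 421 called. Scaling reads and local background to the highest library background, chosen after seeing the data, gave 1029 rising and 881 falling sites. The share of rising sites was 1.65 to 2.93 times as high on chromosomes 16, 17, 19 and 22 as elsewhere over all alternatives. These chromosomes were picked from the same values, and the alternatives re-rank the same libraries, so the ratios are no independent support. For the 18 sites named by margin or level, 244 margins could be computed under 15 alternatives, all above 0 and 28 under 20 points. In 26 further cases the site was no longer shared and had no margin. The site with the largest margin dropped out with −log10 q of 5 or more, with equal numbers of peaks and with 50% reciprocal overlap. These sites were chosen by these values, so their margins are no independent support. Low numbers of reads limit the precision of each percentile.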
